A study of Homo sapiens with 6 samples.

Results

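The JNK and p38 branches of the MAP kinase network are built from relays of kinases, and 50 of the 58735 genes in the deposited FPKM table encode the members of these relays followed here. The rule takes them by gene symbol and uses no measured value, although it was drawn up with earlier results of these data known. They are the MAP4Ks, TAO kinases and MAP3Ks at the top, the TAB adaptors, the MAP2Ks, JNK, p38, ERK3 and ERK5, the scaffold MAPK8IP3, and the kinases that act downstream. The RNA came from HCT116SCs, cells of the human colorectal cancer line HCT116 that were sorted with magnetic beads for CD44 and CD326 (the product of EPCAM) and grown as tumour spheres in serum-free medium with EGF, bFGF and B27. All 6 libraries were made from dissociated spheres 48 h after liposomal transfection, 3 with a negative control siRNA (NC) and 3 with an siRNA against PSCA (siPSCA). Which of the listed PSCA siRNA sequences was used is not stated, and HCT116SCs derive from a single cell line. Whether the libraries of a group came from separate cultures is not stated either, so p-values measure only the spread between these samples, which may be technical.

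A stress signal such as osmotic shock, DNA damage, a stalled ribosome or a cytokine activates a MAP3K. The MAP3K phosphorylates a MAP2K, and the MAP2K phosphorylates both residues of a Thr-X-Tyr motif in the activation loop of JNK or p38. JNK is known for phosphorylating JUN, and p38 for acting through MAPKAPK2, the MSKs and the MNKs. In intestinal epithelium these relays are known for their part in stress responses, cell death and survival. The relays are switched by phosphorylation, whereas the values here are RNA levels.

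The terminal kinases are told apart by the middle residue of that motif, and their coding sequences around it are shown because these genes carry the results on the terminal tier and differ in base composition. Each run is 30 bases of coding sequence from a GENCODE 29 transcript on GRCh38, written 5′ to 3′ on the coding strand, with the 3 codons of the motif in capitals.
MAPK8 (JNK1): agttttatgatgACGCCTTATgtagtgact
MAPK9 (JNK2): aacttcatgatgACCCCTTACgtggtgaca
MAPK10 (JNK3): agcttcatgatgACTCCATATgtggtgaca
MAPK11 (p38β): gacgaggagatgACCGGCTATgtggccacg
MAPK12 (p38γ): gacagtgagatgACTGGGTACgtggtgacc
MAPK13 (p38δ): gacgccgagatgACTGGCTACgtggtgacc
MAPK14 (p38α): gatgatgaaatgACAGGCTACgtggccact
MAPK7 (ERK5): cagtacttcatgACTGAGTATgtggccacg
MAPK6 (ERK3): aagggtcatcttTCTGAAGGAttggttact
The capitals encode Thr-Pro-Tyr in the JNKs, Thr-Gly-Tyr in the p38s and Thr-Glu-Tyr in ERK5. ERK3 has Ser-Glu-Gly at this place. All runs are exonic: MAPK8 at chr10:48420239-48420268 (exon 6, plus strand), MAPK9 at chr5:180249025-180249054 (exon 6, minus), MAPK10 at chr4:86101104-86101133 (exon 8, minus), MAPK11 at chr22:50266989-50267018 (exon 7, minus), MAPK12 at chr22:50256140-50256169 (exon 7, minus), MAPK13 at chr6:36136686-36136715 (exon 7, plus), MAPK14 at chr6:36075878-36075907 (exon 7, plus) and MAPK7 at chr17:19380852-19380881 (exon 4, plus). The MAPK6 run is split between exons 2 and 3 and spans chr15:52047013-52050019 on the plus strand. Of the 30 bases, 19 were G or C in MAPK11 and in MAPK13, 17 in MAPK12, 15 in MAPK14 and in MAPK7, 14 in MAPK9, 13 in MAPK10, 12 in MAPK6 and 11 in MAPK8. Over the whole coding sequence the gap was wider at the third base of each codon, where G or C stood in 84.9% of codons of MAPK11, 84.5% of MAPK12 and 81.1% of MAPK13, against 51.7% of MAPK14, 41.3% of MAPK9, 39.6% of MAPK8 and 36.6% of MAPK6.

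Reads on genes ranged from 16099716 to 17302219 per library. PSCA itself had 4, 12 and 15 reads in NC and 9, 9 and 7 in siPSCA (log2 fold change -0.07, SE 0.12, adjusted p = 0.728), so its RNA did not separate the groups and the libraries are named below by their labels. At a mean of 0.34 FPKM in NC, with 1 added before the log, this fit could hardly show a fall of PSCA RNA. By Western blot the paper reports less PSCA protein in HCT116SCs with each PSCA siRNA. The titles of siPSCA 2 and siPSCA 3 carry another number after HCT than the cell line in their other labels. The sorted markers CD44 and EPCAM lay between 59.6 and 122.9 FPKM in every library and the keratin genes KRT8, KRT18 and KRT19 were high. The intestinal genes were mixed. CDX2 lay between 1.68 and 4.18 FPKM and KRT20 between 4.4 and 5.7, whereas CDX1 was at 0 and VIL1 and CDH17 reached at most 0.313 FPKM. The mean of CDX2 was 2.145 FPKM in NC and 4.075 in siPSCA. Of 5 immune, 4 endothelial and 6 fibroblast markers, only COL1A1 had a mean of at least 1 FPKM. The summed fibroblast markers were 3.49 to 5.74 FPKM in NC and 6.17 to 6.74 in siPSCA. The part of any of these marker differences in the results was not tested. NC 3 stood apart from NC 1 and NC 2, at -45.6 against -18.2 and -21.4 on the first principal component (69.3% of the variance), where the siPSCA libraries lay between 24.2 and 32.05. Results that rest on NC 3 are therefore given with and without it.

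The stress MAP kinase genes split into a group that was higher and a group of about the same size that was lower in siPSCA. Of the 50 genes, 45 had a mean of at least 1 FPKM and were tested, and 31 passed the threshold (adjusted p under 0.05 over 13796 genes), a share of 68.9% beside 50.7% of all tested genes. There were 15 higher (26.6% of all tested genes were) and 16 lower (24.2%), and 14 did not pass. The median log2 fold change of the 45 was -0.01 beside 0.01 for all tested genes, and the median of the absolute values was 0.45 beside 0.30. With an absolute log2 fold change over 0.5 as well, there were 12 higher (14.1% of all tested genes) and 8 lower (9.71%), 20 of the 45 beside 23.8% of all tested genes. Unadjusted p under 0.05 with the same fold gave 20 too, beside 24.9%. The 3 values of one group lay wholly outside those of the other for 37 of the 45, beside 64.5% of all tested genes. Without NC 3 the counts were 17 higher and 17 lower, 75.6% of the 45 beside 53.8% of all tested genes. In all 6 fits that left out 1 library, 24 of the 45 passed the threshold (31.1% of all tested genes did). The amount of RNA per cell and the share of cells that make it cannot be told apart in such bulk samples.

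**Figure D1:**
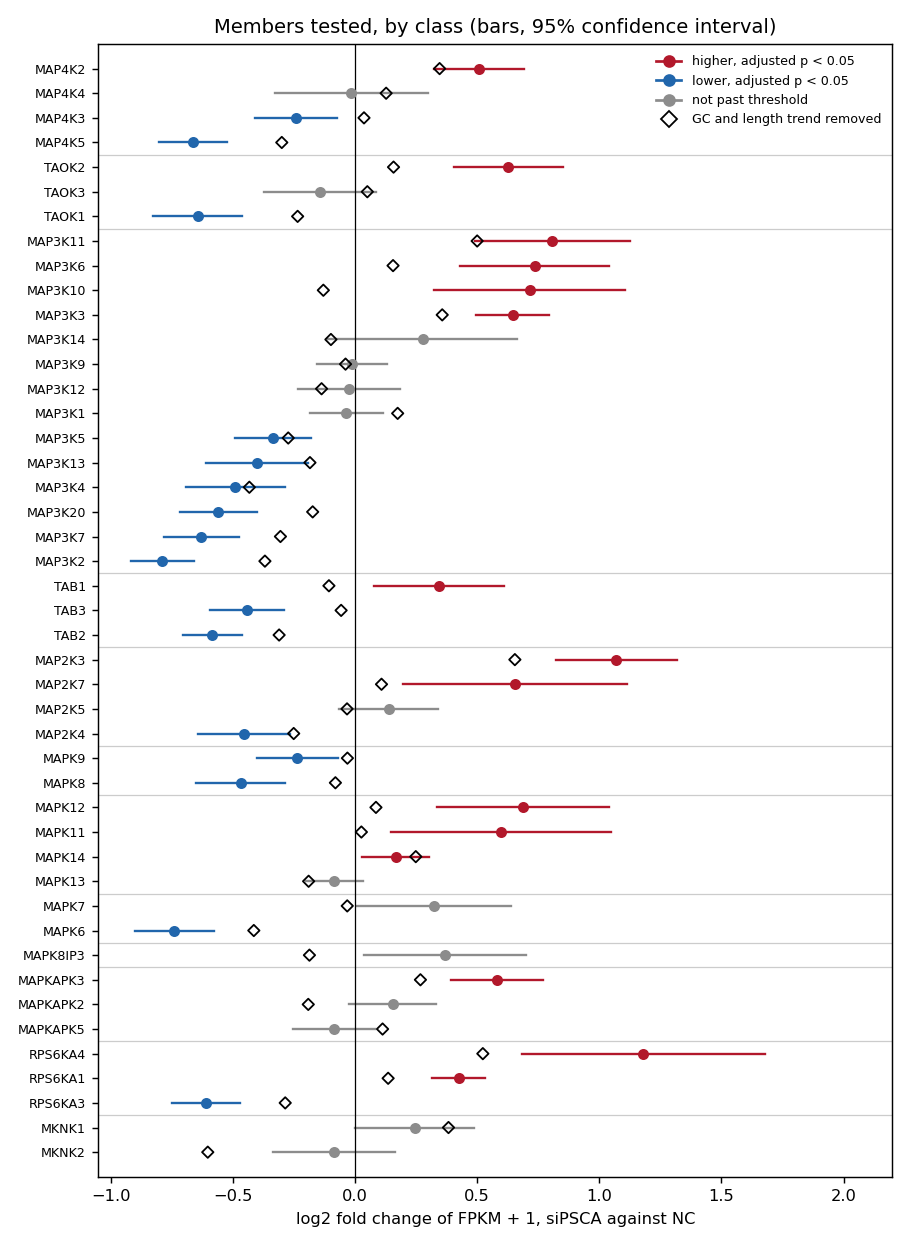
Log2 fold change of FPKM + 1 between siPSCA and NC (horizontal axis) for the 45 tested genes, ordered by class from MAP4Ks at the top to MNKs at the bottom, with grey lines between classes. Filled circles and bars are the estimate and its 95% confidence interval (3 libraries against 3), red for higher and blue for lower past adjusted p 0.05, and open diamonds are the estimates after removal of the GC and length trend. Of the 12 classes, 6 hold both red and blue genes, and the diamonds lie nearer 0 than the circles for 35 of the 45 genes.

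The split ran with the base composition of the transcripts. GC content of the longest transcript ranged from 35.2% in MAP4K5 to 68.4% in MAP3K10. When all tested genes were divided into 3 bins of equal size by GC content, 14 of the 45 lay in the bin under 43.8%, where 13 were lower and none was higher (limma; 49.4% of all genes in that bin were lower and 4.02% higher). The bin over 53.4% held 19 of the 45, with 14 higher and none lower (56.5% and 3.87% of all genes there). In the bin between, 12 genes held 1 higher and 3 lower (19.25% and 19.16% of all genes there). Across the 45 genes, which share the same 6 libraries, the Spearman correlation of GC content with the log2 fold change was 0.90, beside 0.66 over 13792 genes, and it was 0.85 without NC 3. Within the controls, NC 3 differed from the mean of NC 1 and NC 2 in a way that also ran with GC content (Spearman -0.78 over the 45 genes and -0.56 over all).

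A smooth trend on GC content and gene length was therefore removed from each library and the same model refitted. It left 24 of the 45 past the threshold (40.1% of all genes), 9 higher (21.4%) and 15 lower (18.7%), and the median absolute log2 fold change fell from 0.45 to 0.18, beside 0.20 for all tested genes. Called in the same direction with and without the trend were 19 genes (27% of all tested genes), 8 higher and 11 lower, and none was called in opposite directions. On the deposited scale, 18 of these 19 also passed whichever library was left out, and no such fits were run with the trend removed. The same conditions were met by 2976 of all 13796 tested genes. The sign of the estimate changed in 12 of the 45, beside 3607 of all 13796 tested genes. An effect of siPSCA that itself ran with GC content would be removed by this step too, so a technical and a biological part of the trend cannot be told apart here. Removal of the trend did not free the 45 genes of a relation to GC content (Spearman 0.42 with the log2 fold change). Their median with the trend removed was -0.24 in the bin under 43.8%, beside 0.01 for all genes there. In the bin over 53.4% it was 0.11, beside 0.03. Estimates below are on the deposited scale unless they are said to be with the trend removed.

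**Figure D2:**
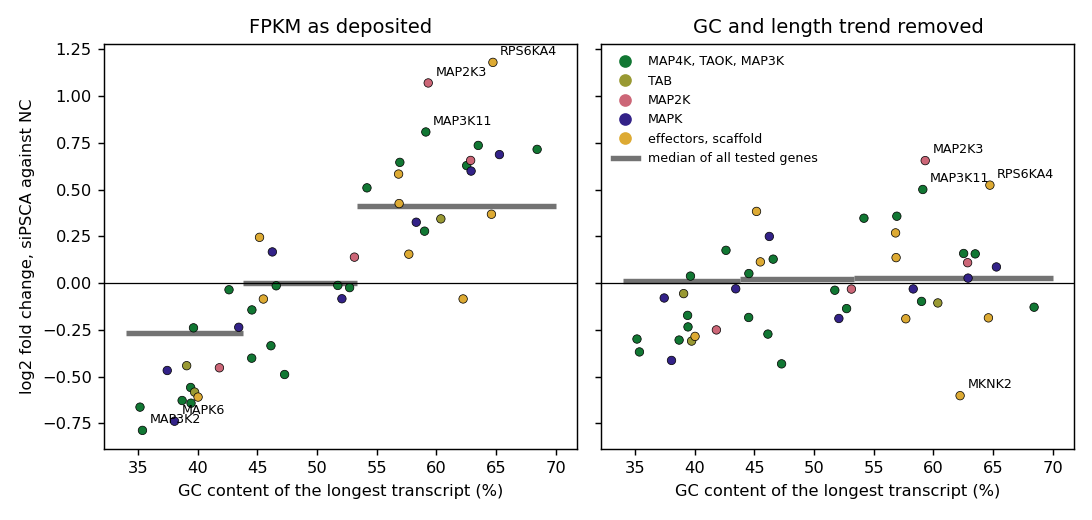
GC content of the longest transcript (horizontal axis, percent) against the log2 fold change between siPSCA and NC for the 45 tested genes, on FPKM as deposited (left) and with the GC and length trend removed (right). Points are coloured by tier and thick grey lines are the medians of all tested genes in 3 GC bins. On the left the genes climb from about -0.79 (MAP3K2) to 1.18 (RPS6KA4) with GC content, and on the right MAP2K3, RPS6KA4, MAP3K11 and MKNK2 lie farthest from 0.

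Among the MAP4Ks, which link small GTPases and receptors to the MAP3Ks, MAP4K2 rose and MAP4K5 and MAP4K3 fell. MAP4K2 was at 6.48, 6.22 and 5.66 FPKM in NC and 9.99, 8.72 and 8.7 FPKM in siPSCA (log2 fold change 0.51, SE 0.08, adjusted p = 0.00341), and at 0.35 (adjusted p = 0.00572) on the log2 scale with the trend removed. MAP4K5 was at 11.1, 11.6 and 11 FPKM in NC and 6.35, 6.7 and 7.12 FPKM in siPSCA (log2 fold change -0.66, SE 0.06, adjusted p = 0.000819), and at -0.30 (adjusted p = 0.00547) with the trend removed. For both genes all siPSCA libraries lay on one side of all NC libraries. The log2 fold change of MAP4K3 was -0.24 (SE 0.07, adjusted p = 0.0288), a call lost without NC 2 or without any one siPSCA library (adjusted p 0.0549 to 0.097), and 0.04 with the trend removed. MAP4K4 had the most RNA per exon length in NC of the 5 genes with a MAP4K symbol. It did not pass (log2 fold change -0.01, and 0.13 with the trend removed), and without NC 3 it stood at 0.14 (adjusted p = 0.0315).

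The TAO kinases, which activate p38 through its MAP2Ks, moved apart from each other. TAOK1 was at 16.7, 16.3 and 18 FPKM in NC and 9.58, 10.6 and 11.4 FPKM in siPSCA (log2 fold change -0.64, SE 0.08, adjusted p = 0.0017). TAOK2 was at 10.7, 10.8 and 8.54 FPKM in NC and 16.5, 16 and 15.2 FPKM in siPSCA (log2 fold change 0.63, SE 0.09, adjusted p = 0.00325). The siPSCA libraries were thus all lower for TAOK1 and all higher for TAOK2, with no overlap in either. With the trend removed the estimates were -0.23 (adjusted p = 0.00754) for TAOK1 and 0.16 (adjusted p = 0.0399) for TAOK2. On recovered reads scaled to the library total (CPM), TAOK2 did not pass with the trend removed (0.10, adjusted p = 0.280). TAOK3 did not pass (log2 fold change -0.14, adjusted p = 0.244) and stood at 0.05 with the trend removed.

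Of 15 MAP3Ks, the entry point of the relay, 14 were tested, 4 were higher, 6 were lower and 4 did not pass. MAP3K2 and MAP3K3, near relatives known for activating ERK5 through MAP2K5, went in opposite directions. MAP3K2 was at 10.5, 9.87 and 10.7 FPKM in NC and 5.43, 5.61 and 5.7 FPKM in siPSCA (log2 fold change -0.79, SE 0.05, adjusted p = 0.00048), and at -0.37 (adjusted p = 0.00166) with the trend removed. MAP3K3 was at 4.33, 4.01 and 3.8 FPKM in NC and 6.86, 7.11 and 6.68 FPKM in siPSCA (log2 fold change 0.65, SE 0.06, adjusted p = 0.00104), and at 0.36 (adjusted p = 0.00312) with the trend removed. Both calls stood in every setting run on the tested genes. ASK1 and ASK2, the products of MAP3K5 and MAP3K6 that respond to oxidative stress, differed in the same manner on the deposited scale. MAP3K5 fell by 0.34 on the log2 scale (SE 0.06, adjusted p = 0.0074) and stood at -0.27 (adjusted p = 0.0103) with the trend removed. MAP3K6 was at 6.38, 5.46 and 4.34 FPKM in NC and 10.4, 9.15 and 9.12 FPKM in siPSCA (log2 fold change 0.74, SE 0.13, adjusted p = 0.00517), and its call was lost with the trend removed, at 0.16 (adjusted p = 0.106).

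The mixed-lineage kinases MAP3K10 and MAP3K11 (MLK2 and MLK3), which bind active Rac and Cdc42, were higher. MAP3K11 was at 6.18, 6.38 and 4.3 FPKM in NC and 10.8, 10.3 and 10.3 FPKM in siPSCA (log2 fold change 0.81, SE 0.13, adjusted p = 0.0043), and at 0.50 (adjusted p = 0.00263) with the trend removed. MAP3K10 was at 2.7, 2.91 and 1.6 FPKM in NC and 4.83, 4.53 and 4.15 FPKM in siPSCA (log2 fold change 0.71, SE 0.16, adjusted p = 0.0129), but this call was lost without siPSCA 1 (adjusted p = 0.0512) and its estimate was -0.13 (adjusted p = 0.253) with the trend removed. Their relative MAP3K9 (MLK1) stood at -0.01 (SE 0.06, adjusted p = 0.87), with a 95% confidence interval from -0.16 to 0.13, and at -0.04 with the trend removed.

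TAK1, encoded by MAP3K7, relays signals from the IL-1, TNF and TGF-β receptors, and it fell along with TAB2 and TAB3. MAP3K7 was at 13.4, 14.2 and 15.2 FPKM in NC and 8.85, 8.46 and 9.26 FPKM in siPSCA (log2 fold change -0.63, SE 0.06, adjusted p = 0.00124), and at -0.31 (adjusted p = 0.00303) with the trend removed. TAB2, which tethers TAK1 to ubiquitin chains, was at 25.5, 24.7 and 25.9 FPKM in NC and 16, 16.9 and 17 FPKM in siPSCA (log2 fold change -0.58, SE 0.05, adjusted p = 0.000762), and at -0.31 (adjusted p = 0.00249) with the trend removed. In both genes the highest siPSCA value lay well under the lowest NC value. TAB3, which does the same as TAB2, stood at -0.44 (SE 0.06, adjusted p = 0.00278) on the log2 scale and at -0.06 (adjusted p = 0.453) with the trend removed. TAB1, which binds TAK1 and also p38α, was at 6.2, 5.54 and 4.38 FPKM in NC and 6.9, 6.97 and 7.21 FPKM in siPSCA (log2 fold change 0.34, SE 0.11, adjusted p = 0.0404). The TAB1 estimate was 0.23 without NC 3 and -0.11 (adjusted p = 0.178) with the trend removed, and the call was lost without NC 2 or any one siPSCA library (adjusted p 0.074 to 0.107).

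ZAK, the product of MAP3K20, is a sensor of stalled and colliding ribosomes. MAP3K20 was at 6.61, 6.77 and 7.64 FPKM in NC and 4.41, 4.45 and 4.42 FPKM in siPSCA (log2 fold change -0.56, SE 0.07, adjusted p = 0.00171), and at -0.17 (adjusted p = 0.0271) with the trend removed. MAP3K4, which GADD45 proteins activate, fell by 0.49 (SE 0.08, adjusted p = 0.00514) and stood at -0.43 (adjusted p = 0.00461) with the trend removed. MAP3K13 (LZK) fell by 0.40 (SE 0.09, adjusted p = 0.0109), a call lost with the trend removed at -0.18 (adjusted p = 0.108). Thus of the 6 MAP3Ks that fell, MAP3K13 alone lost its call in that fit. On CPM with the trend removed MAP3K13 kept its call (-0.33, adjusted p = 0.0132), so the loss depends on the scale. MAP3K1, MAP3K12 and MAP3K14 did not pass, with log2 fold changes of -0.04, -0.02 and 0.28, and of 0.17, -0.14 and -0.10 with the trend removed. Of the exonic bases of MAP3K12, 18.7% are shared with PCBP2 on the other strand, and 12.3% of those of MAP3K14 with MAP3K14-AS1, and whether the counting used strand is not stated.

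At the MAP2K tier the p38 kinase MAP2K3 (MKK3) rose more than any other gene of the relay above the effectors. MAP2K3 was at 14.7, 14.4 and 11.4 FPKM in NC and 31.2, 28.1 and 28.7 FPKM in siPSCA (log2 fold change 1.07, SE 0.10, adjusted p = 0.00104), and at 0.65 (adjusted p = 0.000298) with the trend removed. All siPSCA values lay far above all NC values. MAP2K6 (MKK6), the other p38-specific MAP2K, had 172 reads in NC and 136 in siPSCA in all, a ratio of library-scaled totals of 0.769 (exact 95% interval 0.609 to 0.968 for counting error only). MAP2K4 (MKK4), which acts on JNK and p38, was at 12.4, 12.8 and 14.9 FPKM in NC and 9.05, 9.48 and 9.84 FPKM in siPSCA (log2 fold change -0.45, SE 0.08, adjusted p = 0.00512), and at -0.25 (adjusted p = 0.00973) with the trend removed. MAP2K7 (MKK7), specific to JNK, was at 12.1, 11.8 and 7.05 FPKM in NC and 16.7, 16.8 and 15.8 FPKM in siPSCA (log2 fold change 0.66, SE 0.19, adjusted p = 0.0288). The MAP2K7 call was lost without any one siPSCA library (adjusted p 0.0663 to 0.0849), its estimate was 0.43 without NC 3 (adjusted p = 0.000836) and 0.11 (adjusted p = 0.286) with the trend removed. MAP2K5, the kinase of ERK5, did not pass (log2 fold change 0.14, adjusted p = 0.209) and stood at -0.03 with the trend removed.

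Both expressed JNK genes were lower in siPSCA on the deposited scale, and neither difference stood with the trend removed. MAPK8 (JNK1) was at 7.73, 7.52 and 8.87 FPKM in NC and 5.47, 5.28 and 5.84 FPKM in siPSCA (log2 fold change -0.47, SE 0.08, adjusted p = 0.00425). MAPK9 (JNK2) was at 8.09, 7.93 and 8.05 FPKM in NC and 6.93, 6.01 and 7.07 FPKM in siPSCA (log2 fold change -0.24, SE 0.07, adjusted p = 0.0289). Neither gene's siPSCA values overlapped its NC values. The MAPK9 call was lost without NC 1, NC 2, siPSCA 1 or siPSCA 2 (adjusted p 0.0596 to 0.0804), and with the trend removed the estimates were -0.08 (adjusted p = 0.253) for MAPK8 and -0.03 (adjusted p = 0.73) for MAPK9. In NC both genes had like levels per exon length, 8.04 ± 0.73 and 8.02 ± 0.09 FPKM (SD, n = 3). MAPK9 made up 49.95% ± 2.11 of summed JNK FPKM in NC and 54.6% ± 1.31 in siPSCA (exact permutation test, 2-sided, p = 0.1, the smallest that 3 against 3 libraries allow, and 0.117 adjusted over 7 shares). MAPK10 (JNK3), known from neurons, had 46 reads in NC and 15 in siPSCA in all, a ratio of 0.317 (exact 95% interval 0.164 to 0.578 for counting error only). The exons of MAPK10 overlap those of PTPN13 and ARHGAP24 on the other strand.

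Of the 4 p38 genes, 3 were higher in siPSCA on the deposited scale and MAPK13 did not pass. MAPK12 (p38γ) was at 6.31, 5.59 and 3.92 FPKM in NC and 9.35, 8.81 and 8.74 FPKM in siPSCA (log2 fold change 0.69, SE 0.15, adjusted p = 0.0104), and at 0.09 (adjusted p = 0.195) with the trend removed. MAPK11 (p38β) was at 7.64, 8.57 and 4.73 FPKM in NC and 10.9, 10.9 and 10.6 FPKM in siPSCA (log2 fold change 0.60, SE 0.19, adjusted p = 0.0365), and at 0.03 (adjusted p = 0.82) with the trend removed. In both the groups were apart, and NC 3 was the lowest library. Without NC 3 the MAPK11 estimate was 0.38 (adjusted p = 0.00285), and its call was lost without any one siPSCA library (adjusted p 0.0842 to 0.0985). MAPK14 (p38α, the main p38 of most tissues) was at 10.02, 10.01 and 11 FPKM in NC and 12.1, 11.4 and 11.7 FPKM in siPSCA (log2 fold change 0.17, SE 0.06, adjusted p = 0.0481). Its call was lost without NC 1, NC 2 or any one siPSCA library (adjusted p 0.0967 to 0.148), while the estimate was larger with the trend removed, 0.25 (adjusted p = 0.00547). MAPK13 (p38δ, known from epithelia) was at 11.4, 12.1 and 11.9 FPKM in NC and 11, 11.4 and 10.9 FPKM in siPSCA (log2 fold change -0.08, SE 0.05, adjusted p = 0.192), and at -0.19 (adjusted p = 0.0136) with the trend removed. MAPK12 and MAPK11 lie 1887 bases apart on chromosome 22 and MAPK14 and MAPK13 16572 bases apart on chromosome 6 (GRCh38), and 29.3% of the exonic bases of MAPK12 are shared with HDAC10 on the same strand.

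**Figure D3:**
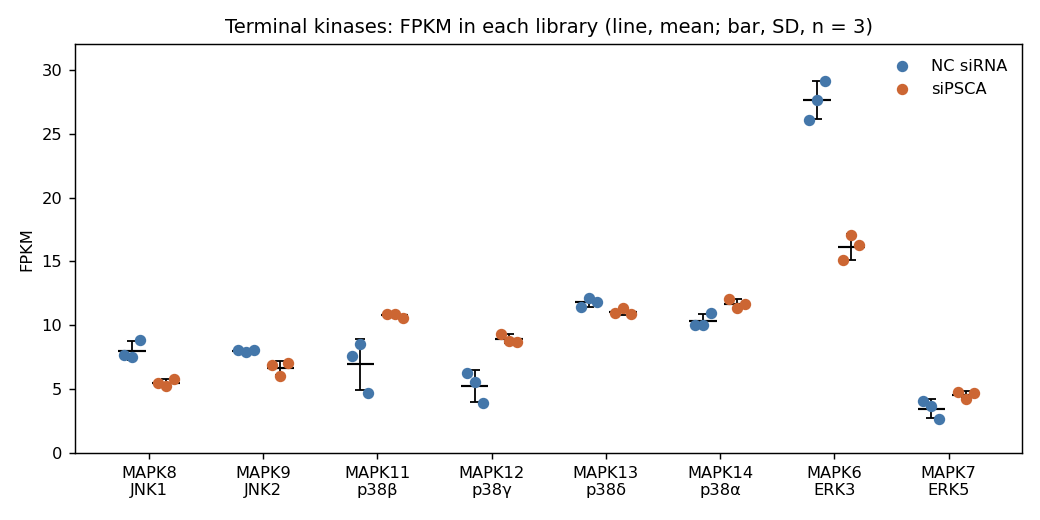
FPKM (vertical axis, from 0) of the 8 terminal kinase genes with a mean of at least 1 FPKM, in each of the 3 NC libraries (blue) and 3 siPSCA libraries (orange), with the mean as a line and the SD as a bar. MAPK6 drops from 26.1 to 29.1 FPKM to 15.1 to 17.1, while MAPK11 and MAPK12 sit higher in siPSCA and their lowest NC value is the rightmost blue point, NC 3.

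On the deposited scale, MAPK11 and MAPK12 each took a larger share of p38 RNA in every siPSCA library than in any NC library. With the trend removed from CPM, the log2 change of the MAPK11 to MAPK14 read ratio went from 0.49 to -0.28. That of MAPK12 to MAPK13 went from 0.88 to 0.24. MAPK13 was 34.5% ± 2.86 of summed p38 FPKM in NC and 26.1% ± 0.681 in siPSCA, MAPK14 30.2% ± 3.98 and 27.5% ± 0.595, MAPK11 20.1% ± 4.48 and 25.4% ± 0.273, and MAPK12 15.2% ± 2.69 and 21.1% ± 0.465 (SD, n = 3). The exact permutation test, 2-sided, gave p = 0.1 for MAPK11, MAPK12 and MAPK13, the smallest this design allows, and p = 0.3 for MAPK14 (0.117 and 0.3 adjusted over 7 shares). The share of MAPK14 differed by -2.72 points (siPSCA minus NC), by -0.435 without NC 3, and by 0.966 with the trend removed. The differences with and without NC 3 were 5.32 and 2.8 points for MAPK11, 5.84 and 4.44 for MAPK12, and -8.43 and -6.81 for MAPK13. These shares depend on the gene length used. Per length of the transcript with the longest coding sequence, MAPK12 made up 28.1% ± 4.75 in NC and 38.8% ± 0.783 in siPSCA, and MAPK11 only 8.35% ± 1.89 and 10.5% ± 0.124.

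**Figure D4:**
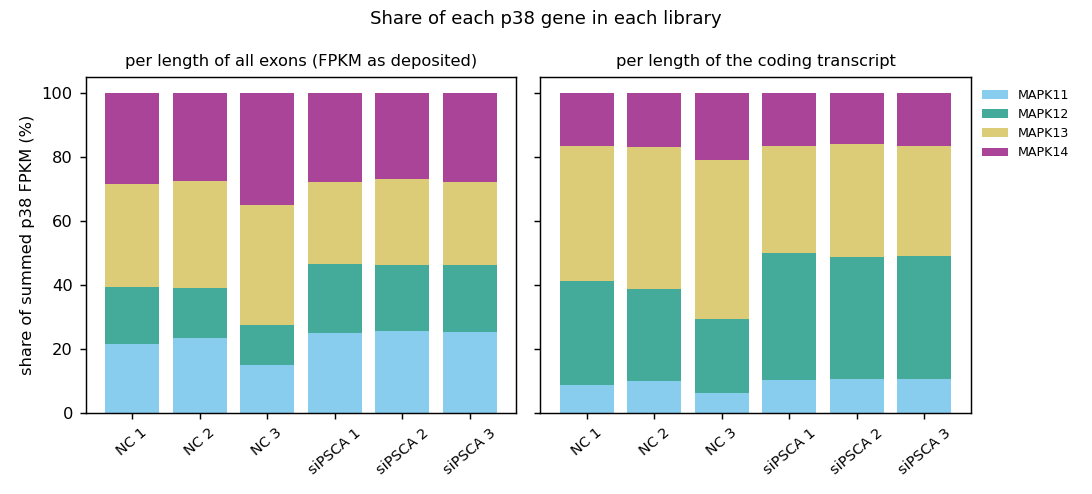
Share of each p38 gene (percent of summed p38 FPKM, stacked from 0 to 100) in each library, per length of all exons as in the deposited FPKM (left) and per length of the coding transcript (right). MAPK11 and MAPK12 together take more in each siPSCA library than in any NC library on both length scales, NC 3 has the smallest such share, and the order of the 4 genes differs between the scales.

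ERK3, an atypical MAP kinase, and ERK5, the target of MAP2K5, lie outside the JNK and p38 branches. MAPK6 (ERK3), the stress MAP kinase gene with the highest FPKM in NC, was at 26.1, 27.6 and 29.1 FPKM in NC and 15.1, 17.1 and 16.3 FPKM in siPSCA (log2 fold change -0.74, SE 0.07, adjusted p = 0.000914), and at -0.41 (adjusted p = 0.00148) with the trend removed. On the deposited scale its call stood whichever library was left out. The processed copies MAPK6P3, MAPK6P5 and MAPK6P6 held 10, 3 and 3 reads in all 6 libraries together. MAPK7 (ERK5) was at 4.13, 3.71 and 2.68 FPKM in NC and 4.78, 4.28 and 4.74 FPKM in siPSCA (log2 fold change 0.32, SE 0.13, adjusted p = 0.079), at -0.03 with the trend removed, and it passed without NC 1 (adjusted p = 0.0384). MAPK8IP3 (JIP3), a scaffold that carries JNK modules along microtubules, was at 7.88, 7.32 and 5.24 FPKM in NC and 9.38, 9.14 and 8.39 FPKM in siPSCA (log2 fold change 0.37, SE 0.14, adjusted p = 0.0641). It passed without NC 1 (adjusted p = 0.0371) and without NC 3 (adjusted p = 0.0308), and with the trend removed the sign turned, to -0.19 (adjusted p = 0.0161).

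Among the MAPKAP kinases, MAPKAPK3 rose and MAPKAPK2 did not pass. MAPKAPK3, a p38 effector close to MAPKAPK2, was at 13.6, 14.3 and 11.7 FPKM in NC and 20.7, 20.4 and 19.6 FPKM in siPSCA (log2 fold change 0.58, SE 0.08, adjusted p = 0.00242), and at 0.27 (adjusted p = 0.00312) with the trend removed. MAPKAPK2, which phosphorylates HSPB1 and RNA-binding proteins that set mRNA decay, stood at 0.15 (SE 0.07, adjusted p = 0.126), and with the trend removed the sign turned, to -0.19 (adjusted p = 0.00607). The transcripts of the pair differ little in GC content (56.8% and 57.7%). The ratio of MAPKAPK3 to MAPKAPK2 reads was 0.692, 0.709 and 0.694 in NC and 0.96, 0.964 and 0.95 in siPSCA. Its log2 change was 0.46, and 0.49 with the trend removed from CPM. MAPKAPK5, a partner of ERK3, was at 3.88, 3.83 and 4.35 FPKM in NC and 3.84, 3.51 and 3.82 FPKM in siPSCA (log2 fold change -0.09, SE 0.07, adjusted p = 0.335), and at 0.11 with the trend removed.

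The MSKs, nuclear kinases that p38 and ERK activate and that phosphorylate CREB and histones, moved apart. RPS6KA4 (MSK2) was at 14.2, 11.7 and 7.59 FPKM in NC and 28.4, 24.1 and 25.1 FPKM in siPSCA (log2 fold change 1.18, SE 0.21, adjusted p = 0.00541). The estimate was 0.95 without NC 3 and 0.52 (adjusted p = 0.00454) with the trend removed. On the deposited scale this was the largest rise among the 45 genes. RPS6KA5 (MSK1) lay under the minimum on FPKM, with annotated exons that add up to 27976 bases, and had 1215 reads in NC and 495 in siPSCA, a ratio of 0.396 (exact 95% interval 0.356 to 0.440). On recovered reads scaled to the library total (CPM) its log2 fold change was -1.30 (SE 0.11, adjusted p = 0.000119 over 16595 genes), and -0.72 (adjusted p = 0.000187) with the trend removed. In a fit of log2(FPKM + 1) without a minimum, which called 26 of the 50 genes beside 16.3% of all 34391, it was -0.47 (SE 0.09, adjusted p = 0.0218), which did not pass without any one siPSCA library (adjusted p 0.0688 to 0.0775). The ratio of RPS6KA4 to RPS6KA5 reads was 2.33, 2.1 and 1.09 in NC and 11.5, 9.76 and 10.3 in siPSCA.

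The RSKs, ERK effectors related to the MSKs, showed the same contrast between relatives. RPS6KA3 (RSK2) was at 12.3, 12.2 and 12.9 FPKM in NC and 7.45, 7.75 and 8.3 FPKM in siPSCA (log2 fold change -0.61, SE 0.06, adjusted p = 0.00101), and at -0.29 (adjusted p = 0.00284) with the trend removed. RPS6KA1 (RSK1) rose by 0.42 (SE 0.04, adjusted p = 0.00136), a call lost with the trend removed, at 0.14 (adjusted p = 0.128). The MNKs, which phosphorylate the cap-binding protein eIF4E, did not pass on the deposited scale. MKNK1 was at 5.69, 5.06 and 4.15 FPKM in NC and 6.04, 5.92 and 6.11 FPKM in siPSCA (log2 fold change 0.24, SE 0.10, adjusted p = 0.084) and passed with the trend removed, at 0.38 (adjusted p = 0.0391). MKNK2 was at 25, 25 and 19.7 FPKM in NC and 22.7, 22 and 20.4 FPKM in siPSCA (log2 fold change -0.09, SE 0.10, adjusted p = 0.516), and with the trend removed it was lower by more than any other of the 45, at -0.60 (adjusted p = 0.000298). Without 1 NC library each passed on the deposited scale, MKNK1 without NC 1 (adjusted p = 0.0297) and MKNK2 without NC 3 (adjusted p = 0.0247).

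Related genes within a tier were then set against each other as read ratios within a library, which do not depend on library size. The 16 pairs were formed with results known, so their ratios are a description without a test. Changes of ratios with the trend removed are from the CPM fit, while calls of genes with the trend removed are from the FPKM fit. In 14 pairs both genes were tested. In 5 of these both genes were called in the same direction, and in 5 in opposite directions: TAOK1 and TAOK2, MAP3K2 and MAP3K3, MAP3K5 and MAP3K6, MAP2K4 and MAP2K7, and RPS6KA3 and RPS6KA1. In all 5 of the latter the gene of higher GC content was the one that rose. With the trend removed no pair was called in the same direction and 4 in opposite directions, of which the TAOK1 and MAP3K2 pairs were among the 5 and the MAPKAPK2 and MKNK1 pairs were not. On CPM with the trend removed, TAOK2 did not pass. The ratio of MAP3K3 to MAP3K2 reads was 0.218, 0.215 and 0.188 in NC and 0.67, 0.673 and 0.622 in siPSCA, a log2 change of 1.66, and 0.75 with the trend removed. The ratio of TAOK2 to TAOK1 reads was 0.341, 0.351 and 0.253 in NC and 0.918, 0.801 and 0.713 in siPSCA, a log2 change of 1.37, and 0.28 with the trend removed. The ratio of MAP2K7 to MAP2K4 reads was 0.88, 0.832 and 0.428 in NC and 1.66, 1.59 and 1.45 in siPSCA, a log2 change of 1.205, and 0.27 with the trend removed. So these ratios were apart between the groups in every library, and these 3 changes were smaller once the trend was removed. Over the 16 pairs the change was smaller in 12 and larger in 4, among them MKNK2 to MKNK1, from -0.38 to -1.17, and MAP3K11 to MAP3K10, from -0.03 to 0.64. The ratio of MAP2K6 to MAP2K3 reads was 0.0657 ± 0.0060 in NC and 0.0232 ± 0.00325 in siPSCA (SD, n = 3), and its log2 change went from -1.50 to -0.50 with the trend removed. For TAB3 and TAB2, which are close in GC content (39.1% and 39.8%), the ratio was 0.37, 0.362 and 0.388 in NC and 0.402, 0.388 and 0.369 in siPSCA, and the groups overlapped.

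**Figure D5:**
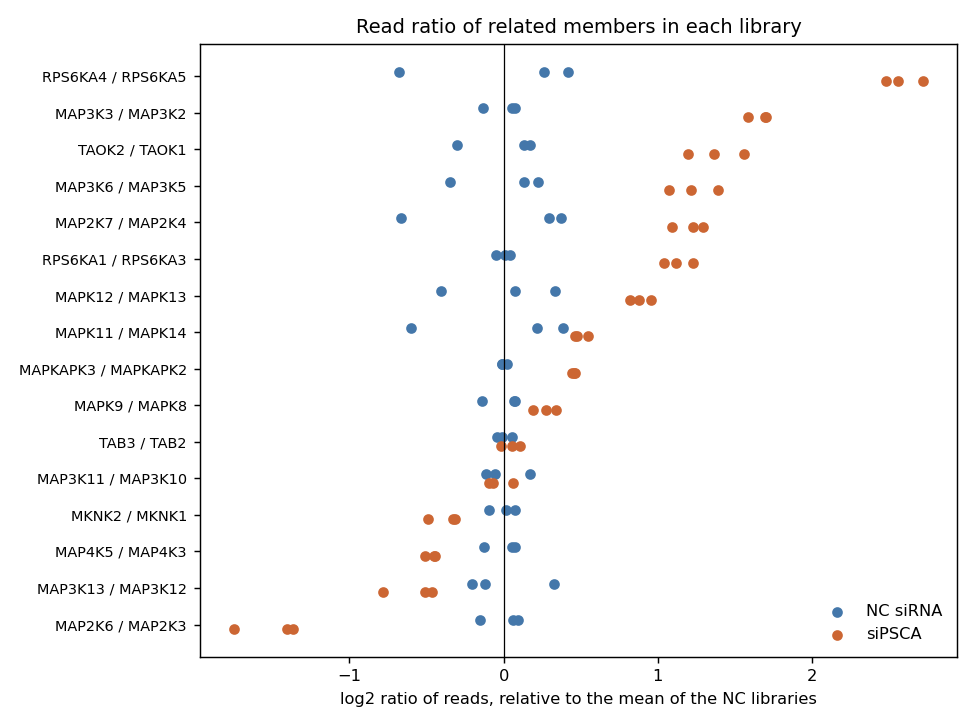
Log2 ratio of reads of related genes (horizontal axis, set to 0 at the mean of the NC libraries) for 16 pairs, 1 point per library, NC in blue and siPSCA in orange. In 14 pairs the groups do not overlap, the MSK pair at the top moves most, and NC 3 lies apart to the left in the MSK, MAP2K7 and MAPK11 pairs.

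Of the members below the minimum, MAP3K8 (TPL2), which feeds the MEK and ERK relay, had 158 reads in NC and 106 in siPSCA, a ratio of 0.652 (exact 95% interval 0.505 to 0.840). MAP4K1 (HPK1), known from blood cells, had 126 and 124 reads, a ratio of 0.957 (0.741 to 1.24), so a difference was not detectable at this depth. These intervals cover counting error only. In the limma fit without a minimum, MAP3K8, MAP2K6 and MAPK10 did not pass (adjusted p = 0.218, 0.460 and 0.529). On CPM, limma called MAPK10 lower (log2 fold change -1.74, adjusted p = 0.0288) but not MAP3K8 or MAP2K6 (adjusted p = 0.0657 and 0.151). With the trend removed from CPM none of these genes passed (adjusted p 0.0988 to 0.541).

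Around the relay, 95 further genes of the pathway were listed (upstream activators, scaffolds, phosphatases, substrates and other kinases), of which 84 were tested. There were 29 higher and 24 lower, 63.1% in all beside the 50.7% of all tested genes, with a median log2 fold change of 0.02. With the trend removed there were 17 higher and 19 lower, 42.9% in all beside 40.1%. The substrates held 13 higher and 9 lower of 31, the activators 5 and 9 of 24, the scaffolds 5 and 3 of 11, the phosphatases 4 and 2 of 13, and the kinases outside the relay 2 and 1 of 5. The largest rise was that of HSPB1, the small heat shock protein that MAPKAPK2 phosphorylates, at 141, 135 and 91.4 FPKM in NC and 294, 284 and 273 FPKM in siPSCA (log2 fold change 1.23, SE 0.16, adjusted p = 0.0024), and at 0.61 (adjusted p = 0.000263) with the trend removed. KLF2, a transcription factor induced through ERK5, was at 12.5, 12.4 and 6.9 FPKM in NC and 25.3, 22.9 and 22.2 FPKM in siPSCA (log2 fold change 1.12, SE 0.21, adjusted p = 0.00729). MAPK8IP2, a JNK scaffold, was at 1.13, 1.03 and 0.472 FPKM in NC and 3.02, 2.67 and 2.93 FPKM in siPSCA (log2 fold change 1.06, SE 0.16, adjusted p = 0.00316). All 3 were higher in every siPSCA library than in any NC library. The largest fall was that of DDIT3 (CHOP), a p38 substrate and stress transcription factor, at 8.79, 9.09 and 9.46 FPKM in NC and 5.83, 3.92 and 4.79 FPKM in siPSCA (log2 fold change -0.80, SE 0.12, adjusted p = 0.00341), and at -0.84 (adjusted p = 0.00249) with the trend removed. MEF2A, a transcription factor that p38 and ERK5 phosphorylate, was at 13.6, 13.5 and 15.3 FPKM in NC and 6.92, 7.83 and 9.11 FPKM in siPSCA (log2 fold change -0.77, SE 0.10, adjusted p = 0.00235). SPAG9 (JIP4), a scaffold for p38 and JNK modules, was at 19.5, 18.1 and 20.8 FPKM in NC and 10.8, 11.2 and 11.2 FPKM in siPSCA (log2 fold change -0.76, SE 0.06, adjusted p = 0.000748). With the trend removed the estimates were 0.44 (adjusted p = 0.00355) for KLF2, 0.51 (adjusted p = 0.00461) for MAPK8IP2, -0.53 (adjusted p = 0.00368) for MEF2A and -0.48 (adjusted p = 0.000833) for SPAG9.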

How the data were processed

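RNA was measured by RNA-seq in 6 libraries of HCT116SCs, 3 NC and 3 siPSCA, grouped by the sample labels. The authors deposited 1 table of FPKM (fragments scaled to exon length and library total) for 58735 genes, and its identifiers, positions and gene lengths were those of GENCODE 29 (Ensembl 94) in all of them. Libraries were made with the NEBNext Ultra RNA kit, and the submitters' processing notes name the build GRCh38. The aligner, the counter and the strand setting are not given in the sources used here. FPKM times gene length was a whole multiple of 1 step for 100% of values (tolerance 0.05 reads), so reads were recovered. In a library 1 read per kilobase was worth 0.0549 to 0.0595 FPKM, and 94.4% to 97.0% of each total lay on genes.

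For 13796 genes with a mean of at least 1 FPKM, log2(FPKM + 1) was modelled on the group alone with limma 3.58.1 (R 4.3.3), by lmFit and by eBayes with trend. The added 1 understates changes of low genes. Every p for a single gene is 2-sided, from limma, with Benjamini-Hochberg adjustment over all genes tested. The GC and length trend was removed from each library with mgcv 1.9.3. Genes under the minimum were compared as summed reads with exact intervals at 95%, which cover counting error only. Tables and plots were made with pandas 2.3.3, matplotlib 3.10.9 and numpy 2.4.6 under Python 3.11.15. The fit was also tested on simulated data. Without a GC trend in them, small added changes were recovered neither with nor without the removal step. With a GC trend they were recovered in part without that step, among many false calls, and not with it. A GC trend alone gave many calls unless it was removed. Larger added changes were recovered in most of the changed genes, with and without the removal step. False calls beside them were few, except where a GC trend was left in.

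The members, classes, pairs and further pathway genes were chosen with earlier results of these data known. Values in every library were given for MAPK6 to MAPK14, for the largest rise and fall of each class, and for members past the threshold with an absolute log2 fold change over 0.5. Of the further genes, the 3 largest rises and falls past the threshold were named. Alternatives covered the pseudocount, the minimum, TPM, voom on recovered reads, the trend, a replicate block and each library left out.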

Additional observations from a re-analysis of the deposited data

How the results depend on the processing

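The counts of calls stayed within 1.5 times under another pseudocount (0.1), a minimum of 5 FPKM and no minimum, and the cause of the changes listed here was not tested. The main dependence was on the GC and length trend: 9 genes were higher with it removed, 8 with it removed and a replicate block, and 9 on CPM from recovered reads with it removed (chosen after seeing the data, as were all CPM fits and the coding-transcript length). All genes called numbered 4631 with the trend removed and a replicate block, 33.6% beside 46.7% of the members tested. On CPM with the trend removed 39.2% of all genes were called, beside 52% of the members. With an unadjusted p under 0.05 and an absolute log2 fold change over 0.5, 3434 of all genes and 8 lower members were called. The members' median log2 fold change, close to 0, was -0.062 on TPM, -0.024 without a minimum and 0.01 with voom, and the share difference of MAPK14 turned to 0.966 points with the trend removed. Leaving out each library gave a median of -0.028 to 0.0094, 10 to 17 members higher, 14 to 17 lower and 4627 to 7425 genes called, of which 4627 was without siPSCA 1. Signs turned with the trend removed, with and without a replicate block alike, for these log2 fold changes: MAP4K3 0.037, MAP4K4 0.13, TAOK3 0.051, MAP3K1 0.17, MAP3K10 -0.13, MAP3K14 -0.098, TAB1 -0.11, MAP2K5 -0.032, MAPK7 -0.032, MAPK8IP3 -0.19, MAPKAPK2 -0.19, MAPKAPK5 0.11. On CPM with the trend removed the turned values were MAP4K3 0.084, MAP4K4 0.17, TAOK3 0.044, MAP3K1 0.23, MAP3K10 -0.090, MAP3K14 -0.028, TAB1 -0.11, MAP2K6 0.17, MAPK8IP3 -0.27, MAPKAPK2 -0.22, MAPKAPK5 0.15. With voom they were MAP4K4 0.012, MAP3K9 0.011, and on CPM MAP4K4 0.012, MAP3K9 0.011. MAPK7, MAPK8IP3 and MKNK1 passed as higher with voom (adjusted p = 0.0378, 0.0265 and 0.0383) and on CPM (0.0480, 0.0314 and 0.0470). Genes near 0 turned when 1 library was left out, with ranges of MAP4K1 -0.071 to 0.021, MAP4K4 -0.11 to 0.14, MAP3K9 -0.048 to 0.0094, MAP3K12 -0.11 to 0.025. Without a minimum MAP4K3, TAB1, MAP2K7, MAPK9, MAPK11 and MAPK14 no longer passed, and MAPK14 did not on TPM (adjusted p = 0.190). TAOK2 and MAP3K20 did not pass with both the trend removed and a replicate block. The trend could not be removed from FPKM for the 5 members under the minimum, so CPM stood in. Same-numbered NC and siPSCA libraries correlated at 0.0955, 0.0132 and 0.134 in their deviations, so the numbers were not taken as pairs, and NC 2 correlated best with siPSCA 1. With the replicate block alone 14 members were higher and 16 lower, 66.7% of the 45 beside 48.75% of all tested genes. In that fit TAB1 (adjusted p = 0.0599) and MAPK14 (0.0750) no longer passed, and MAPK8IP3 passed (0.0327). With the block RPS6KA5 (0.0746) lost its call in the fit without a minimum.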
